A study of Mus musculus with 20 samples.

Results

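The genes described here encode the nuclear subunits of the mitochondrial respiratory chain and of ATP synthase. They were chosen by name: rows of all 5 deposited tables whose symbol follows the naming pattern for subunits of complex I (Nduf), II (Sdh), III (Uqcr and Cyc1), IV (Cox) or V (Atp5), with cytochrome c itself (Cycs), and whose mean normalised count over the libraries of a day reached 10 in at least 1 table. The pattern matched 88 names. The pseudogene Atp5l-ps1 was left out by its name, and Cox4i2, Cox6b2, Cox7b2 and Cox8c fell below the minimum, with highest mean normalised counts of 2.71, 0.71, 0.80 and 0.00. The least abundant gene kept was Ndufa4l2, at 15.02, followed by Cox6a2 at 45.57. This left 83 of the 33581 genes in each table. Of these, 79 are counted as subunits: 34 of complex I, 4 of complex II, 9 of complex III, cytochrome c, 15 of complex IV and 16 of complex V. The other 4 share only the name pattern (Atp5s, Atp5sl, Cox7a2l and Cox4nb) and are described apart. Atp5l2 is counted in complex V, but it shares sequence with Atp5l, and reads of these 2 genes may not have been told apart. No protein-coding exon length was found for Atp5l2 in the annotation used here, so levels per length cover 15 genes of complex V.

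The respiratory chain sits in the inner mitochondrial membrane. Complexes I and II take electrons from NADH and succinate, complex III passes them to the small mobile protein cytochrome c, complex IV hands them to oxygen, and complex V uses the resulting proton gradient to make ATP. Most subunits are encoded in the nucleus and a minority in mitochondrial DNA. When fat cells form from precursors, mitochondria are made in large numbers, and the nuclear subunit genes are known targets of the factors NRF-1, GABP, the estrogen-related receptors and their PGC-1 coactivators.

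The libraries are RNA-seq of 3T3-L1, a mouse fibroblast line that can be turned into fat cells in culture. They form a knockdown arm, whose lentiviral hairpin targets Tcf7l2 (a transcription factor of the Wnt pathway), and a control arm with a scrambled hairpin. RNA was taken on days 0, 2, 4, 6 and 8 of differentiation, which gives 10 groups of 2 libraries and 20 libraries in all. Every group was infected at low passage and selected with puromycin into a mixed population rather than a clone, was differentiated by the same procedure, and did so without routine addition of a thiazolidinedione. The knockdown arm rests on a single hairpin here. Nothing in the labels tells if the 2 libraries of a group were grown as separate cultures, and p-values thus reflect library-to-library spread that may be only technical.

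Libraries held 20153362 to 33973608 recovered reads, and levels are given as RPM, a gene's reads per 1000000 reads of the scaled library. Tcf7l2 was at 38.5 to 58.0 RPM in the 10 scrambled libraries and at 12.4 to 22.2 RPM in the 10 knockdown libraries, without overlap, a difference of -1.36 ± 0.09 (log2, SE, limma, adjusted p = 2.61e-08) averaged over the days. Of 9 adipocyte markers, the summed level went from 82.0 and 97.1 RPM at day 0 to 5444 and 13534 RPM at day 6 in scrambled cells. In knockdown cells it went from 48.0 and 67.3 RPM to 1410.2 and 2591 RPM. In the scrambled arm the library numbered 2 stood far above the library numbered 1 from day 4 on: the marker sums were 1673 and 7128 RPM at day 4 and 2401 and 15168 RPM at day 8. Because of this spread, counts of called genes are also given without single libraries. The 13 subunits encoded in mitochondrial DNA are listed at 0 in all 20 libraries and are not analysed here. These are bulk samples, in which fewer cells of a type and less RNA per cell cannot be told apart.

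In scrambled cells the transcripts of the 79 subunits together went from 4905 and 5774 RPM at day 0 to 9329 and 17193 RPM at day 6, a 2.48-fold higher mean. They stood at 6851 and 14497 RPM at day 8. In knockdown cells the sum was 4976 and 6040 RPM at day 0, 6524 and 7599 RPM at day 6, a 1.28-fold higher mean, and 5975 and 6097 RPM at day 8. The arms overlapped at day 0, where the knockdown mean was 103% of the scrambled mean, and no longer overlapped from day 2 on, where it was 86.3%, 66.7%, 53.2% and 56.5% at days 2, 4, 6 and 8.

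**Figure D1:**
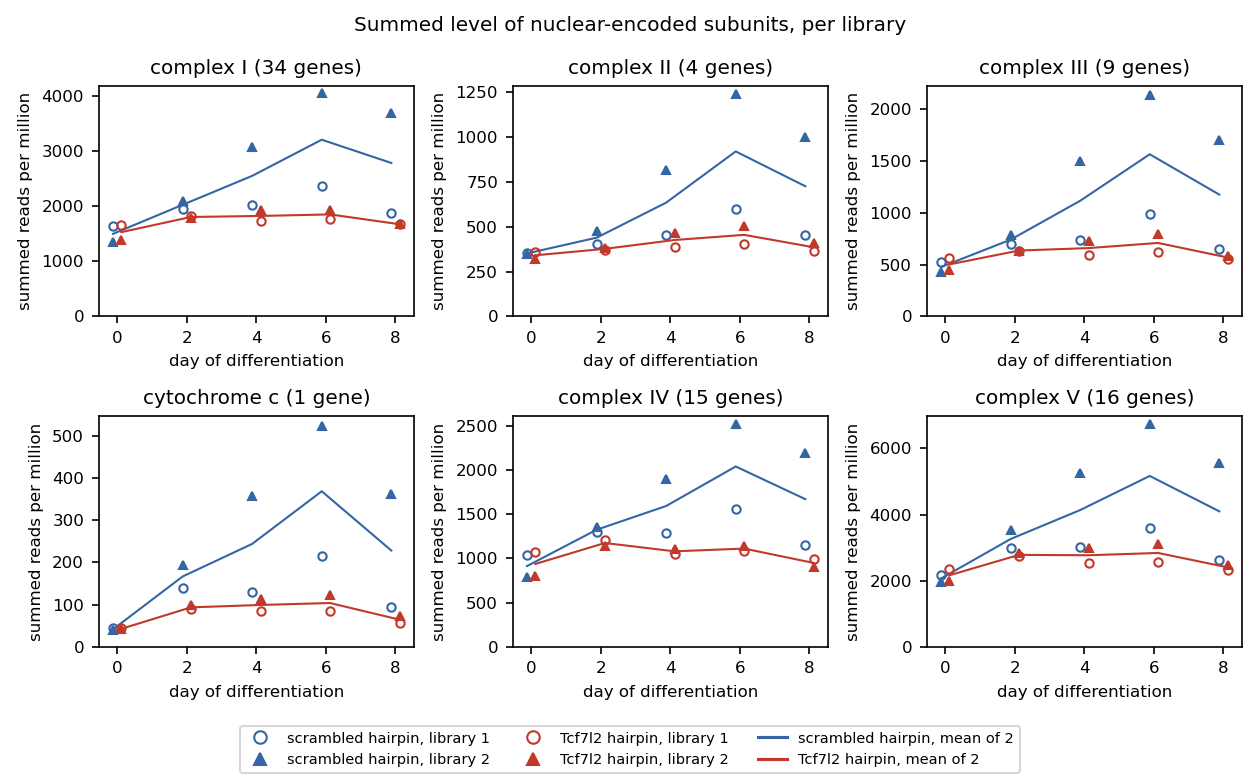
Summed level (RPM, linear axis from 0) of the nuclear subunits of each complex against day of differentiation, one point per library (circles: library 1, triangles: library 2) with lines through the mean of 2 libraries. For complex I at day 6 the scrambled libraries stood at 2362 and 4039 RPM and the knockdown libraries at 1764 and 1930 RPM, while the arms overlapped at day 0.

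The size of the scrambled rise differed among the complexes. Between days 0 and 6 the summed mean of the scrambled arm was 2.14-fold higher for complex I, 2.62-fold for complex II, 3.28-fold for complex III, 2.23-fold for complex IV and 2.50-fold for complex V. Cytochrome c stood apart from every complex, at 8.96-fold. The order in the knockdown arm put complex IV last, at 1.19-fold, after complex I (1.21), complex V (1.31), complex II (1.33) and complex III (1.41), again with cytochrome c highest, at 2.44-fold. In both arms complex III thus had the highest value among the 5 complexes. These differences among complexes are described and were not tested.

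Gene by gene, 57 of the 79 subunits rose between days 0 and 6 in scrambled cells and none fell (limma voom, Benjamini-Hochberg adjusted p under 0.05), where 9.12% of all 16497 genes tested were called higher. They were 24 of 34 subunits of complex I, 3 of 4 of complex II, 8 of 9 of complex III, cytochrome c, 9 of 15 of complex IV and 12 of 16 of complex V. The median log2 change was 0.97 for complex I, 1.31 for complex II, 1.69 for complex III, 1.18 for complex IV and 1.06 for complex V, against -0.0052 over all genes tested. Estimates were above 0 for 77 of 79 subunits. The exceptions were Ndufa4l2 and Atp5g2, at -0.92 and -0.04, neither called.

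Earlier and later days gave fewer calls. At day 2, 4 subunits were called higher and 1 lower (background 11.2% higher and 13.4% lower), namely Cycs, Ndufa12, Ndufa4 and Atp5g1 upward and Cox6a2 downward. An unadjusted p under 0.05 was found for 18 of 79 subunits at day 2, against 37.0% of all genes. At day 4, 10 were called higher and 0 lower (6.64% and 7.21% of all genes), and at day 8, 8 were called higher (5.55%). Both day 4 libraries stood above both day 0 libraries for 70 of 79 subunits and under them for 0, against 29.5% and 27.8% of all genes. The unadjusted p at day 4 was under 0.05 for 60 of 79 subunits, against 31.8% of all genes. The medians over all subunits were nevertheless 0.49, 0.76 and 0.79 at days 2, 4 and 8, beside 1.07 at day 6. Over all 83 genes, the day 2 count of 6 became 1 without scrambled day 0 library 2 or either scrambled day 2 library, and 13 without either scrambled day 8 library. The day 4 count of 11 became 0 without either scrambled day 0 library or scrambled day 4 library 2, 32 without scrambled day 4 library 1, 18 without either scrambled day 6 library, 42 and 43 without scrambled day 8 library 1 and 2, and 5 or 6 without any library of scrambled day 2 or of knockdown days 2, 4, 6 and 8. Of all 83 genes, 59 were called at day 6. That count was 0 without scrambled day 6 library 2, 6 without scrambled day 0 library 1 and 4 without scrambled day 0 library 2. At day 8 the count of 8 became 69 without scrambled library 1 of that day, 0 without library 2 or either scrambled day 0 library, 13 without either of scrambled day 4, 17 without either of scrambled day 6, and 4 without any library of scrambled day 2 or of knockdown days 2, 4, 6 and 8. Without the 3 scrambled libraries numbered 2 of days 4, 6 and 8 together, 43 of 79 subunits were called higher at day 6, with a median of 0.70. In the fit blocked by replicate number, 47, 71 and 50 subunits were called higher at days 4, 6 and 8.

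**Figure D2:**
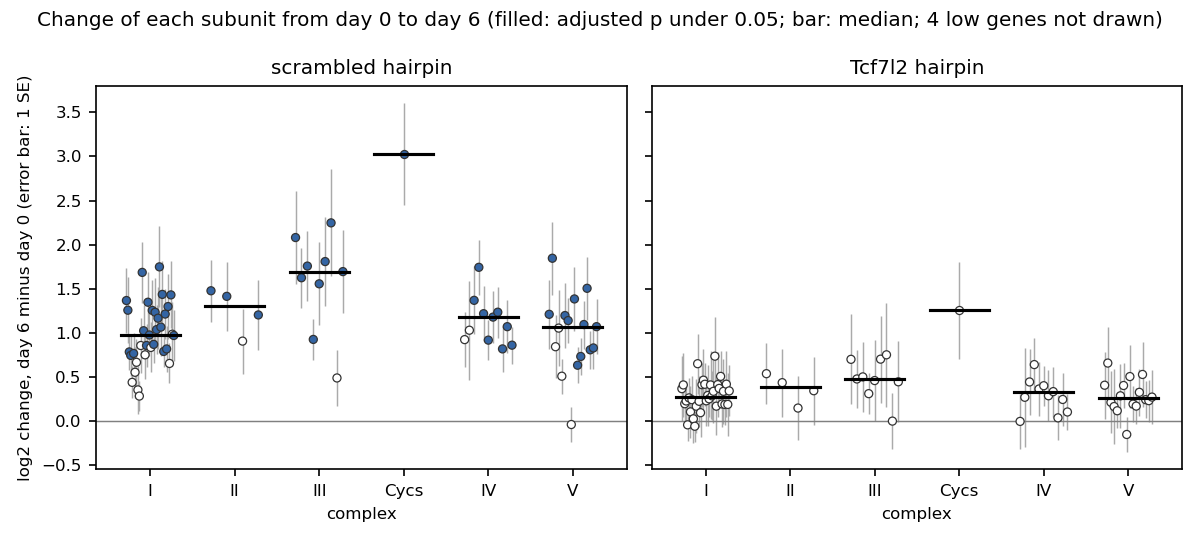
Log2 change of each subunit from day 0 to day 6 (points, with 1 SE) by complex in the scrambled arm (left) and the knockdown arm (right); filled points passed an adjusted p of 0.05 and the bar is the median over all subunits of the complex. The very low genes Cox6a2, Cox7a1, Cox8b and Ndufa4l2 are not drawn as points. In the scrambled arm 57 of 79 subunits passed, and in the knockdown arm 0.

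In knockdown cells 0 subunits were called at days 4, 6 and 8 against day 0 by limma voom, and 0 by limma on log2 RPM. At an unadjusted p under 0.05 there were 2 subunits at each of these days: Cycs and Ndufs4, Cycs and Cox8b, and Cox6a2 and Cox8b. Of all genes, 14.7%, 11.5% and 10.9% had an unadjusted p under 0.05 at these days, and 3.1%, 0.582% and 0.673% were called. In the fit blocked by replicate number, 0 subunits were called at days 4, 6 and 8, and Cox7a2l was called lower at days 6 and 8. Of all genes, that fit called 5.52%, 4.38% and 3.62% higher at days 4, 6 and 8, and 3.47%, 1.73% and 1.39% lower. At day 2 the subunits called were 2 very low genes, Ndufa4l2 and Cox6a2, both lower (log2 changes of -3.11 ± 0.75 and -3.62 ± 0.87, adjusted p = 0.0126 and 0.013; background 15.3%). Their call rests on at most 30 reads a library at day 0. The count became 0 without knockdown day 0 library 2 or knockdown day 2 library 1, and 1 without knockdown day 2 library 2. In the blocked fit these 2 were called, and so were Cycs (1.14 ± 0.36, adjusted p = 0.0454) and Cox4nb, both higher. That fit called 14.3% of all genes higher and 13.9% lower at day 2. The medians over all subunits were 0.31, 0.25, 0.33 and 0.11 at days 2, 4, 6 and 8, and 74 of 79 estimates were above 0 at day 6. The day 6 median ranged from 0.17 to 0.46 over the fits that left out 1 library. The 3 scrambled libraries numbered 2 of days 4, 6 and 8 enter this fit through the shared spread, the library scaling and the voom weights. Without them the day 6 median was 0.32.

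The difference between the arms in their change from day 0 was tested directly. No gene of the 16497 passed at day 6 or at day 8 (0.0% called, limma voom on recovered counts), nor with limma on log2 RPM. Among the subunits, 8 had an unadjusted p under 0.05 at day 6 (5.68% of all genes), Cycs, Uqcr10, Uqcr11 and 5 of complex IV (Ndufa4, Cox6a1, Cox7a2, Cox7b and Cox7c). At day 8 there were 3 (4.64% of all genes), all of complex IV (Ndufa4, Cox6a1 and Cox7a2). The lowest adjusted p was 0.684 and 0.835. The estimates were negative for 78 of 79 subunits at day 6, with a median of -0.80, and for 79 of 79 at day 8, with a median of -0.69. The larger rise of the scrambled arm was therefore not shown to differ from that of the knockdown arm for any single gene.

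Within each day, the subunits of knockdown cells were set against those of scrambled cells. At day 0 no subunit was called (limma, and 0 by limma voom), where 0.224% of all genes were called, 0.0788% lower. At an unadjusted p under 0.05 there was 1, Cox6a2, against 6.41% of all genes. The median difference was 0.04, with 52 subunits above 0 and 27 under it. At day 2 the median was -0.15 and at day 4 -0.46, with 69 and 77 of 79 estimates lower. No subunit was called on either day by limma or limma voom, where 0.267% (0.0788% lower) and 1.61% of all genes were called. At an unadjusted p under 0.05 there were 0 subunits at day 2 and 1, Ndufa4, at day 4, against 5.02% and 10.2% of all genes. The libraries of the arms did not overlap, with knockdown lower, for 42 subunits at day 2 (22.5% of all genes) and 44 at day 4 (21.0%). With knockdown higher, 20.4% of all genes did not overlap at day 4.

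At day 6 the median difference was -0.73, and the 2 knockdown libraries lay under both scrambled libraries for 71 of 79 subunits, against 26.8% of all genes tested. Only Ndufa4 passed the adjusted threshold (4.12% of all genes called, 1.44% lower and 2.68% higher). At an unadjusted p under 0.05 there were 50 subunits, against 24.0% of all genes. The medians were -0.58 for complex I, -0.92 for complex II, -0.97 for complex III, -0.80 for complex IV and -0.65 for complex V. At day 8 the median was -0.62, 52 subunits did not overlap and were lower (23.1% of all genes), and Ndufa4 was called lower and Cox6a2 higher. Of all genes, 5.75% were called, 2.35% lower and 3.39% higher. An unadjusted p under 0.05 was found at day 8 for 34 of 79 subunits, against 23.4% of all genes. The knockdown contrasts and the scrambled time course share the scrambled libraries, so their sizes are not independent.

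The single-day counts moved with the fit and with single libraries. In the fit blocked by replicate number, 27 subunits were called lower at day 6, and 14 lower and 1 higher at day 8. That fit called 8.70% and 8.87% of all genes lower at these days, and 8.20% higher at day 8. By limma voom and in a separate fit of each day, 0 were called at day 6 or day 8. The count over all 83 genes at day 6 went from 1 to 30 without scrambled day 6 library 1, to 21 without either scrambled day 8 library, and to 0 without scrambled day 6 library 2, without either knockdown library of day 2, 4, 6 or 8, or without either scrambled day 2 library. At day 8 it went from 2 to 65 without scrambled day 8 library 1, to 0 without scrambled day 8 library 2 or knockdown day 8 library 1, and to 1 without scrambled day 2, knockdown day 2, 4 or 6 libraries or knockdown day 8 library 2.

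**Figure D3:**
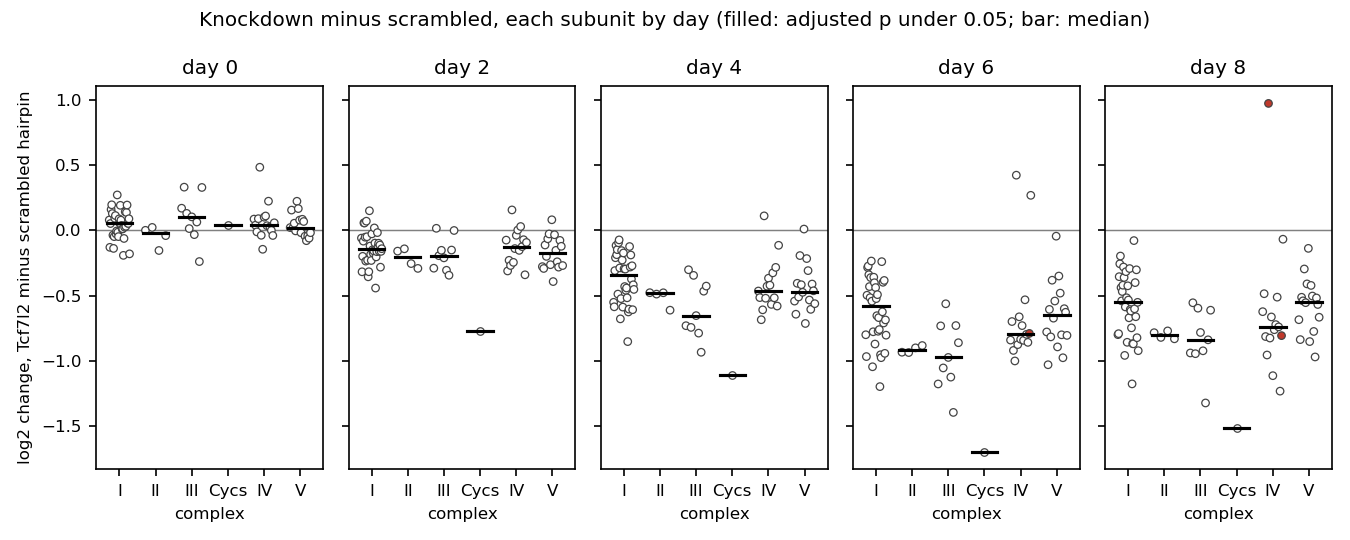
Log2 difference (deposited variance-stabilised scale, knockdown minus scrambled) of each of the 79 subunits at each day, grouped by complex; filled points passed an adjusted p of 0.05 and bars are medians. The points centre near 0 at day 0 (median 0.04) and near -0.73 at day 6, with Cycs lowest from day 2 on and Cox6a2 the filled point above 0 at day 8.

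Averaged over the 5 days, 39 of 79 subunits differed between the arms: 38 were lower in knockdown cells and 1, Cox6a2, was higher (limma, day as a factor, adjusted p under 0.05). Over all genes tested, 25.4% were called, 13.2% lower and 12.3% higher. The 38 were 15 of 34 subunits of complex I, 3 of 4 of complex II, 5 of 9 of complex III, cytochrome c, 7 of 15 of complex IV and 7 of 16 of complex V. The median difference was -0.33, -0.49, -0.50, -0.43 and -0.35 for complexes I to V, against -0.0028 over all genes. The means of the knockdown arm were lower on every one of the 5 days for 25 subunits (16.8% of all genes).

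This averaged count was less dependent on single libraries than the single-day counts. Of the 39 subunits called, 21 were called again in each of 20 fits that left out 1 library. The count over all 83 genes went from 42 to between 22 and 26 without scrambled library 2 of day 4, 6 or 8, without knockdown day 4 library 1, or without any of the 4 knockdown libraries of days 6 and 8. Without the 3 scrambled libraries numbered 2 of days 4, 6 and 8 together, 16 subunits were lower and 1 higher, and the median over all subunits was -0.14.

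Complex I, the NADH dehydrogenase, was represented by 34 genes. Per length of transcript, its median level was 34.8 RPKM (RPM per 1000 bases of exon) at day 0 and 76.9 RPKM at day 6 in scrambled cells, and 35.2 and 43.8 RPKM in knockdown cells. Ndufs1 encodes the largest iron-sulfur subunit of the NADH-oxidising arm and had the largest averaged difference in the complex. It stood at 59.1 and 58.1 RPM in scrambled and 51.5 and 49.9 RPM in knockdown libraries at day 0. At day 6 it was at 126 and 310.0 RPM in scrambled and 73.6 and 97.5 RPM in knockdown libraries, and at day 8 at 93.5 and 249 against 58.9 and 75.4 RPM. The knockdown libraries were the lower at all 3 of these days, already at day 0. Ndufs1 rose by 1.75 ± 0.46 (log2, SE) from day 0 to day 6 in scrambled cells (limma voom, adjusted p = 0.0236). Averaged over days it was lower by knockdown, at -0.77 ± 0.20 (limma, adjusted p = 0.0118), and at -0.39 (adjusted p = 0.0039) without the 3 scrambled libraries numbered 2 of days 4, 6 and 8. The rise was not called without scrambled day 6 library 2 or either scrambled day 0 library, with an adjusted p of up to 0.283.

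Ndufa9, an accessory subunit where the arms of the enzyme meet, was at 52.4 to 56.1 RPM in all 4 libraries of day 0. It stood at 131 and 243 RPM in scrambled against 78.3 and 92.8 RPM in knockdown libraries at day 6, so the arms were together at the start and apart at day 6. It rose in scrambled cells by 1.69 ± 0.35 (adjusted p = 0.0102, limma voom) and was lower by knockdown averaged over days at -0.61 ± 0.16 (adjusted p = 0.0126, limma). The rise had an adjusted p of up to 0.143 without scrambled day 6 library 2 or scrambled day 0 library 1. Ndufv1, which carries the NADH-binding site, had 131 and 292 RPM in scrambled and 92.3 and 110.1 RPM in knockdown libraries at day 6. Its averaged difference was -0.52 ± 0.17 (adjusted p = 0.0363). Not every subunit of complex I moved in this way. Ndufs4, an accessory subunit of the NADH-oxidising arm, was at 40.8 and 51.5 RPM in scrambled and 39.1 and 37.9 RPM in knockdown libraries at day 6, with an averaged difference of -0.06 ± 0.07 (adjusted p = 0.525), although it rose by 0.79 ± 0.18 in scrambled cells (adjusted p = 0.0134).

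Complex II, succinate dehydrogenase, is the only complex of the chain that is also an enzyme of the citric acid cycle, and all of its 4 subunits are nuclear. Sdha, the flavoprotein that binds succinate, was at 148 and 145 RPM in scrambled and 159.6 and 134 RPM in knockdown libraries at day 0. At day 6 it was at 284 and 590.1 RPM in scrambled and 198 and 230.3 RPM in knockdown libraries. The arms overlapped at day 0 and not at day 6. Sdha rose in scrambled cells by 1.48 ± 0.35 (limma voom, adjusted p = 0.0166), and so did the iron-sulfur subunit Sdhb, by 1.41 ± 0.39 (adjusted p = 0.0288). The averaged knockdown differences were alike in size: -0.47 ± 0.16 for Sdha (limma, adjusted p = 0.0445) and -0.47 ± 0.18 for Sdhb (adjusted p = 0.0575). With the replicate number as a block, Sdhb had an adjusted p of 0.0282. The membrane anchors Sdhc and Sdhd were at -0.51 ± 0.16 and -0.53 ± 0.17 (adjusted p = 0.0267 and 0.0311). Sdhc was the 1 subunit of the complex not called in the scrambled time course (0.91 ± 0.37, adjusted p = 0.10). Sdha kept its averaged call in 8 of 20 fits that left out 1 library, Sdhd in 14 and Sdhc in 17.

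Complex III, the cytochrome bc1 complex, had the highest summed rise of the 5 complexes in both arms. Uqcrfs1 encodes the Rieske iron-sulfur protein that hands electrons to cytochrome c1. At day 0 it was at 47.4 and 42.3 RPM in scrambled and 49.1 and 44.8 RPM in knockdown libraries. By day 6 it had 130.1 and 348 RPM in scrambled and 60.3 and 104 RPM in knockdown libraries, and at day 8 74.1 and 271 against 52.0 and 59.6 RPM. At days 6 and 8 scrambled library 2 was the highest of the 4. Uqcrfs1 rose by 2.25 ± 0.61 in scrambled cells (limma voom, adjusted p = 0.0261), the largest called change in the complex. Its averaged knockdown difference was -0.79 ± 0.27 (limma, adjusted p = 0.0417), called in 9 of 20 fits that left out 1 library, and -0.28 ± 0.13 (adjusted p = 0.145) without the 3 scrambled libraries numbered 2 of days 4, 6 and 8.

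Cyc1, cytochrome c1, followed Uqcrfs1 closely. It went from 55.9 and 51.9 RPM at day 0 to 145 and 358 RPM at day 6 in scrambled libraries, and from 66.5 and 55.9 to 81.4 and 122 RPM in knockdown libraries. It rose by 2.08 ± 0.53 in scrambled cells (limma voom, adjusted p = 0.0206). The averaged knockdown difference of -0.59 ± 0.24 was not called (limma, adjusted p = 0.0744), but was with the replicate number as a block (adjusted p = 0.0289). Among the small subunits, Uqcrh, the hinge protein that docks cytochrome c, showed another pattern. It did not pass in the scrambled time course, at 0.49 ± 0.32 (adjusted p = 0.297), with 111 and 65.7 RPM at day 0 and 114 and 127 RPM at day 6. In knockdown libraries it was at 74.0 and 69.1 RPM at day 6, and its averaged difference of -0.48 ± 0.13 (adjusted p = 0.0156) was called in each of 20 fits that left out 1 library.

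Cytochrome c (Cycs), which carries electrons between complexes III and IV and also takes part in apoptosis when released, had the largest averaged knockdown difference of the 79 subunits. At day 0 all 4 libraries were close, at 43.3 and 39.0 RPM in scrambled and 43.8 and 41.0 RPM in knockdown cells. By day 2 the arms were apart, at 140.1 and 193 RPM against 88.8 and 97.8 RPM. At day 4 they were at 129 and 359 against 85.7 and 112 RPM. Scrambled libraries were thus the higher from day 2, the earliest day after the start. At day 6 Cycs was at 215 and 523 RPM in scrambled and 83.8 and 123 RPM in knockdown libraries. At day 8 the values were 93.3 and 363 against 55.3 and 72.9 RPM. Neither day showed overlap between the arms. Cycs rose in scrambled cells by 3.03 ± 0.57 at day 6 (limma voom, adjusted p = 0.00785), while the change in knockdown cells was 1.26 ± 0.55 (adjusted p = 0.389).

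The averaged knockdown difference of Cycs was -1.01 ± 0.27 (limma, adjusted p = 0.0126). It was called in each of 20 fits that left out 1 library, with an adjusted p of 0.00756 to 0.029, and was -0.51 ± 0.13 (adjusted p = 0.013) without the 3 scrambled libraries numbered 2 of days 4, 6 and 8. On single days it was -1.69 ± 0.57 at day 6 (adjusted p = 0.11) and -1.51 ± 0.57 at day 8 (adjusted p = 0.133), neither called. With the replicate number as a block both were called, at adjusted p = 0.0252 and 0.0316. The rise at day 6 lost its call without scrambled day 0 library 1 or scrambled day 6 library 2, with an adjusted p of up to 0.104. Per length of transcript, Cycs was among the lowest of 78 subunits with a known exon length at day 0, at rank 72 with 13.2 RPKM in scrambled cells. At day 6 it ranked 41 with 118 RPKM in scrambled cells and 61 with 33.2 RPKM in knockdown cells.

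**Figure D4:**
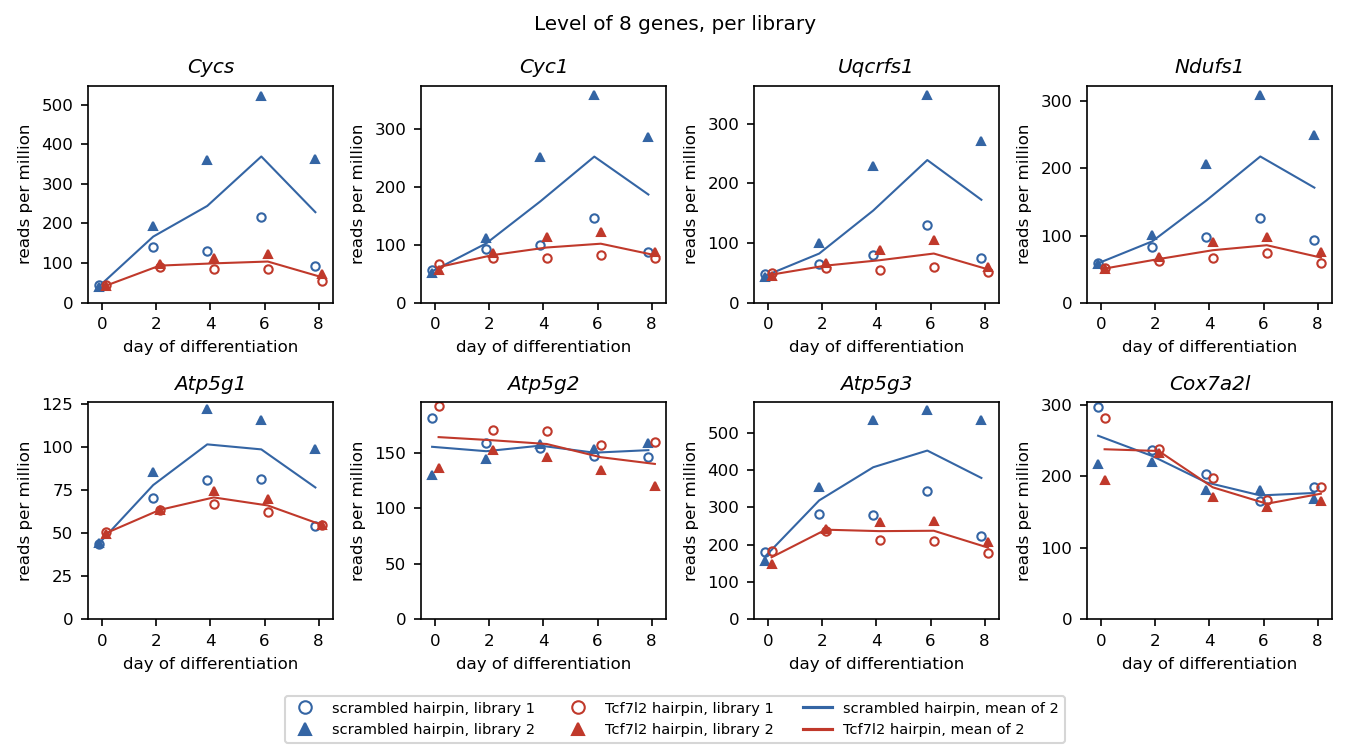
Level (RPM, linear axis from 0) of 8 genes in every library against day of differentiation, with lines through the mean of 2 libraries per arm. Cycs, Cyc1, Uqcrfs1, Ndufs1 and Atp5g3 climb in the scrambled arm, most in library 2, whereas Atp5g2 stays between 120.5 and 192 RPM in all 20 libraries and Cox7a2l is lower at day 6 than at day 0 in both arms.

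Promoter sequences are given for Cycs and Uqcrfs1 because these had the largest called rises among the electron carriers and both hold a cAMP response element (CRE). Each line holds the 250 bases before the listed start of the gene, from RefSeq on GRCm38.p6, written 5′ to 3′ on the minus strand, with the match to TGACGTCA in capitals. The Cycs window is chr6:50566570-50566819 and the Uqcrfs1 window chr13:30545317-30545566. The match lies 169 to 162 bases before the start of Cycs and 29 to 22 bases before that of Uqcrfs1.
Cycs: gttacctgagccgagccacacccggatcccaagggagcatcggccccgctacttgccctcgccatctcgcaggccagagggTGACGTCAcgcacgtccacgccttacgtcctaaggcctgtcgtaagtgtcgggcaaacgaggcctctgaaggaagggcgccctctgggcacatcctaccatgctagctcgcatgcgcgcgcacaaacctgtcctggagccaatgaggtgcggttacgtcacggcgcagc
Uqcrfs1: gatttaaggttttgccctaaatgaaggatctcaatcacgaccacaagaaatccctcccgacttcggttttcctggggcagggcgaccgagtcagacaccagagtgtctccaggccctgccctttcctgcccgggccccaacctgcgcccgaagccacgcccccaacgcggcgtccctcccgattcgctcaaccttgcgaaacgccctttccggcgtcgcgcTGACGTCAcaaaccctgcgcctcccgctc
The search covered both strands of the same window in the 64 of 79 subunits that had a promoter entry. CRE letters (TGACGTCA) were in 5 of them (7.81%; Ndufa10, Ndufa11 and Ndufb2 beside these 2), against 1.62% of 27025 gene promoters. The NRF-1 motif, printed in capitals in the Atp5g2 promoter further on and searched with any base at its position 6, was in 12 (18.8%, against 3.86%), the ETS letters CCGGAAG read by GABP in 11 (17.2%, against 7.05%), the YY1 letters AANATGGCG in 1, Ndufb11 (1.56%, against 1.12%) and the estrogen-related receptor (ERR) letters TCAAGGTCA in 1, Atp5g3 (1.56%, against 0.366%). The median scrambled change at day 6 was 1.26 for subunits with the CRE letters and 1.07 for those without, and 0.92 with and 1.08 without the NRF-1 motif. Of the 5 with CRE letters, Cycs and Uqcrfs1 were at 3.03 and 2.25. Ndufa10 was at 1.26, and Ndufa11 and Ndufb2 were at 0.78 and 0.86, under the median of those without. The motif counts are matches of letters only, and nothing was measured at the promoters.

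Complex IV, cytochrome c oxidase, has several subunits with alternative genes for muscle or other tissues. Ndufa4 bears a complex I name but is now assigned to complex IV, and was the 1 subunit called lower at both day 6 and day 8. It was at 113 and 82.7 RPM in scrambled and 107 and 82.0 RPM in knockdown libraries at day 0. At day 6 it had 156 and 199 RPM against 99.6 and 102 RPM, and at day 8 118 and 174 against 86.7 and 76.4 RPM. Its libraries were interleaved at day 0 and separate afterwards. The knockdown difference was -0.79 ± 0.20 at day 6 (limma, adjusted p = 0.0448), -0.81 ± 0.20 at day 8 (adjusted p = 0.0342) and -0.51 ± 0.10 averaged over days (adjusted p = 0.00246). The averaged call held in each of 20 fits that left out 1 library. The calls at days 6 and 8 each held in 9 of 20, and were lost without scrambled library 2 of the day, either scrambled day 2 library, or any knockdown library of days 2, 4, 6 and 8, with an adjusted p of up to 0.411 and 0.349. In scrambled cells Ndufa4 rose by 0.86 ± 0.21 at day 6 (adjusted p = 0.0173), while the change in knockdown cells was 0.10 ± 0.20 (adjusted p = 0.889).

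Cox6a1, the widely expressed form of a regulatory subunit, had the smallest adjusted p of all subunits in the scrambled time course. It went from 88.4 and 79.1 RPM at day 0 to 212 and 372 RPM at day 6 in scrambled libraries, and from 98.7 and 80.4 to 136 and 143 RPM in knockdown libraries. It rose by 1.74 ± 0.31 in scrambled cells (limma voom, adjusted p = 0.00622), and was lower by knockdown at -0.55 ± 0.16 averaged over days (limma, adjusted p = 0.0196). That rise was called in 19 of 20 fits, the exception being without scrambled day 6 library 2 (adjusted p = 0.0914). Cox4i1, the common form of subunit 4, was at 269 and 448 RPM in scrambled and 190.1 and 196 RPM in knockdown libraries at day 6. Its scrambled change of 0.92 ± 0.31 (adjusted p = 0.0563) and averaged difference of -0.38 ± 0.15 (adjusted p = 0.0652) both missed the threshold. Blocked by replicate number, they had an adjusted p of 0.0228 and 0.0468.

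The muscle isoforms of complex IV were rare. Cox6a2 was the 1 subunit called higher in knockdown cells, at a very low level. Its day 8 values were 0.666 and 0.598 RPM (18 and 17 reads) in scrambled and 3.22 and 2.17 RPM (69 and 74 reads) in knockdown libraries. The arms did not overlap at day 8. On the compressed deposited scale the difference was 0.97 ± 0.19 at day 8 (limma, adjusted p = 0.0109) and 0.43 ± 0.10 averaged over days (adjusted p = 0.00769). The day 8 call was lost without scrambled day 8 library 2 or knockdown day 8 library 1 (adjusted p up to 0.0991), and by limma voom. The muscle markers Myod1 and Ckm had 0 reads in every library, and Myog was at 0.037 RPM or less. Cox8b and Cox7a1, isoforms of muscle and brown fat, went the other way, at day 6 in 1 library. Cox8b was at 1.03 and 13.3 RPM in scrambled against 0.999 and 2.43 RPM in knockdown libraries at day 6. Cox7a1 was at 0.246 and 6.01 against 0.227 and 0.607 RPM. Neither was called, with averaged differences of -0.49 ± 0.27 and -0.45 ± 0.24 (adjusted p = 0.198 and 0.182). At day 6 scrambled library 2 alone held the higher values. At day 8 both scrambled libraries were above both knockdown libraries. Cox8b was then at 1.70 and 11.7 against 1.07 and 1.26 RPM. Cox7a1 was at 0.259 and 4.01 against 0.0467 and 0.176 RPM, from 7 and 114 against 1 and 6 reads.

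Complex V, ATP synthase, held the most abundant transcript of the set per length. Atp5b, the catalytic beta subunit, was at 249 RPKM at day 0 and 967 RPKM at day 6 in scrambled cells, and at 277 and 443 RPKM in knockdown cells, the highest level of 78 subunits in each of these groups except scrambled day 0, where Cox8a led at 259 RPKM. In RPM it went from 481 and 472 to 1158 and 2547 in scrambled libraries, and from 559.7 and 502 to 736 and 961 in knockdown libraries. It rose by 1.85 ± 0.41 in scrambled cells (limma voom, adjusted p = 0.0136). The averaged difference of -0.53 ± 0.20 missed the threshold (limma, adjusted p = 0.0571), and passed with the replicate number as a block (adjusted p = 0.0249). The small membrane subunits e and f, Atp5k and Atp5j2, were lower by knockdown at -0.58 ± 0.15 and -0.48 ± 0.12 (adjusted p = 0.0104 each).

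The 3 genes Atp5g1, Atp5g2 and Atp5g3 encode the same mature c subunit of the membrane rotor, with different import sequences, and did not behave alike. Atp5g3 went from 180.3 and 155 RPM at day 0 to 344 and 560.4 RPM at day 6 in scrambled libraries, and from 183 and 148 to 209.5 and 264 RPM in knockdown libraries. Atp5g1 went from 43.8 and 44.4 to 81.5 and 116 RPM, and from 50.5 and 49.3 to 62.4 and 69.8 RPM. Atp5g2 was at 181 and 129.8 RPM at day 0 and 147 and 153 RPM at day 6 in scrambled libraries, and at 192 and 137 RPM and 157 and 135 RPM in knockdown libraries. The arms overlapped for Atp5g2 at both days and were apart for the other genes at day 6. In scrambled cells Atp5g3 rose by 1.38 ± 0.36 (adjusted p = 0.0237) and Atp5g1 by 1.14 ± 0.25 (adjusted p = 0.0134), and Atp5g2 was at -0.04 ± 0.19 (limma voom, adjusted p = 0.909). The averaged knockdown difference was -0.57 ± 0.17 for Atp5g3 (limma, adjusted p = 0.0188), -0.30 ± 0.11 for Atp5g1 (adjusted p = 0.0574; 0.0379 with the replicate number as a block) and -0.0025 ± 0.07 for Atp5g2 (adjusted p = 0.984). The rises of Atp5g1 and Atp5g3 lost their calls without scrambled day 6 library 2 or either scrambled day 0 library. The difference between these genes was not tested.

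Promoters of the c subunit genes are shown because the genes share a protein and differ in course. The windows are the 250 bases before the listed start, from RefSeq on GRCm38.p6, 5′ to 3′ on the minus strand: chr11:96075632-96075881 for Atp5g1, chr15:102671048-102671297 for Atp5g2 and chr2:73911327-73911576 for Atp5g3. Capitals mark the NRF-1 motif in Atp5g2, 42 to 33 bases before the start, and the ERR letters in Atp5g3, on the opposite strand, 52 to 44 bases before the start. Atp5g1 held none of the 5 motifs in this window.
Atp5g1: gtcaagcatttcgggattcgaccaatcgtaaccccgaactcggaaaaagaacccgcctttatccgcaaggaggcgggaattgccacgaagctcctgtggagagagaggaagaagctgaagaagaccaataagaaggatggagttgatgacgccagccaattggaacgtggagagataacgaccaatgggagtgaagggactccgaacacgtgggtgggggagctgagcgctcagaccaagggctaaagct
Atp5g2: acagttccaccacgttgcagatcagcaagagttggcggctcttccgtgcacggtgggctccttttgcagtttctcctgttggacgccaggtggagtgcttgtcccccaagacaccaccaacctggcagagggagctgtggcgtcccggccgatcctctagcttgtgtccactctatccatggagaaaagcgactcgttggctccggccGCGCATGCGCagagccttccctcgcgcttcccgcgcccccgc
Atp5g3: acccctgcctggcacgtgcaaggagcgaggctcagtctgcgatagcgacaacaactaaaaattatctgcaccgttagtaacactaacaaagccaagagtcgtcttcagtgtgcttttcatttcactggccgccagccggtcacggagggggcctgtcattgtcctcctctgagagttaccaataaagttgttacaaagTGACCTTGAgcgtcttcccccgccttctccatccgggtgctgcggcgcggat
The ERR match of Atp5g3 is the single one among the 64 subunit promoters searched.

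Of the 4 genes that share only the name pattern, Cox7a2l, which helps join complexes III and IV into supercomplexes, fell in scrambled cells. It was at 296 and 217 RPM at day 0 and 165 and 180.4 RPM at day 6 in scrambled libraries, and at 281 and 194 RPM and 166 and 156 RPM in knockdown libraries. The change was -0.56 ± 0.18 in scrambled cells (limma voom, adjusted p = 0.0448). It was called in 7 of 20 fits that left out 1 library, namely without scrambled day 0 library 2 or any library of knockdown day 0, scrambled day 4 or scrambled day 8. Its adjusted p reached 0.317, at a change of -0.33, without scrambled day 0 library 1, and was 0.185 and 0.109 without scrambled day 6 library 2 and 1. In knockdown cells it was -0.54 ± 0.18 (adjusted p = 0.228), or 0.018 with the replicate number as a block. Between the arms the averaged difference was -0.05 ± 0.07 (adjusted p = 0.633). Atp5s and Atp5sl were lower by knockdown averaged over days, by small amounts (-0.17 ± 0.06 and -0.14 ± 0.04, limma, adjusted p = 0.0412 and 0.0249). Cox4nb, named for its place beside Cox4i1, encodes a subunit of a membrane protein insertion complex of the endoplasmic reticulum. It was at 27.4 and 30.1 RPM in scrambled and 30.6 and 28.2 RPM in knockdown libraries at day 0, and at 57.0 and 74.1 against 39.0 and 45.4 RPM at day 2, where the arms no longer overlapped. In scrambled cells it rose by 1.17 ± 0.22 at day 2, 0.82 ± 0.22 at day 4 and 0.80 ± 0.23 at day 6 (limma voom, adjusted p = 0.00245, 0.0313 and 0.0297). The day 2 rise was called in each of 20 fits that left out 1 library. Those of days 4 and 6 were lost without either scrambled day 0 library or without scrambled library 2 of the day, with an adjusted p of up to 0.224 and 0.236. By knockdown it was lower averaged over days at -0.30 ± 0.09 (limma, adjusted p = 0.0278), called in 13 of 20 such fits and lost without scrambled library 2 of day 2, 6 or 8 or knockdown library 1 of day 2, 4, 6 or 8. That difference was -0.20 ± 0.09 (adjusted p = 0.129) without the 3 scrambled libraries numbered 2 of days 4, 6 and 8, and the day 2 difference of -0.55 ± 0.21 was not called (adjusted p = 0.756).

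Genes that build, drive or use the chain were followed as further lists. Of 51 assembly factors tested, 11 rose in scrambled cells at day 6 and none fell (limma voom, median 0.52), where 9.12% of all genes were called higher and 8.86% lower. Among them were Foxred1, a complex I factor, at 1.80 (adjusted p = 0.0161), Atpaf2, an ATP synthase factor, at 1.94 (adjusted p = 0.019), and Cox19, a complex IV factor, at 0.91 (adjusted p = 0.0136). Averaged over days, 16 were lower and 1 higher in knockdown cells (limma, median -0.21), against 13.2% and 12.3% of all genes. Those lower included Coa3, listed as Ccdc56, at -0.32 (adjusted p = 0.000156), Cox19 at -0.48 (adjusted p = 0.00179) and Tmem126b at -0.23 (adjusted p = 0.00546). The 1 higher was Uqcc2, a complex III factor listed as 2900010M23Rik, at 0.38 (adjusted p = 0.0229).

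Of 20 regulators of respiratory genes tested, 4 rose in scrambled cells at day 6 (Ppargc1b, Nrip1, Tfb1m and Tefm; 9.12% of all genes) and none fell. Ppargc1b, a coactivator of the PGC-1 family, was at 1.63 and 2.26 RPM at day 0 and 11.1 and 39.8 RPM at day 6 in scrambled libraries, and at 1.08 and 1.82 RPM and 2.86 and 5.72 RPM in knockdown libraries. It rose by 3.42 (limma voom, adjusted p = 0.0313). Nrip1, a corepressor of energy metabolism genes, also rose in scrambled cells, by 2.47 (adjusted p = 0.00384), and was lower by knockdown averaged over days at -0.90 (limma, adjusted p = 0.00562), with 115 and 233 against 49.0 and 55.9 RPM at day 6. In all, 7 regulators were lower by knockdown averaged over days and 1 higher, against 13.2% and 12.3% of all genes. Among those lower were Tfb2m at -0.45 (adjusted p = 0.00176), Ppard at -0.53 (adjusted p = 0.00366) and Ppargc1b at -1.10 (adjusted p = 0.00863). The muscle coactivator Perm1, listed as 2310042D19Rik, was higher at 0.37 (adjusted p = 0.00193). Ppargc1a was lower at day 8, with 22.6 and 23.2 RPM in scrambled and 10.7 and 7.99 RPM in knockdown libraries (-1.14, adjusted p = 0.0317). The transcripts of NRF-1 (Nrf1), GABP (Gabpa) and the mitochondrial DNA factor Tfam, chosen for mention after their values were seen, had averaged differences of 0.03, 0.0014 and 0.04, none called.

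Among 7 genes for nucleotide exchange, uncoupling and ATP synthase inhibition, Slc25a5, Ndufab1 and Ucp3 rose in scrambled cells at day 6 (limma voom; 9.12% of all genes). Averaged over days, 3 were lower and 1 higher by knockdown, against 13.2% and 12.3% of all genes, and the 2 adenine nucleotide translocases went in opposite directions. Slc25a5, the form of proliferating and many other cells, was at 459 and 954 RPM in scrambled and 259 and 314 RPM in knockdown libraries at day 6. Slc25a4, the form of heart and muscle, was at 415 and 411 RPM in scrambled and 581 and 577 RPM in knockdown libraries at day 8. The arms did not overlap in either case, but the days shown differ. By knockdown, Slc25a4 was called at day 8 (0.48, limma, adjusted p = 0.0369), and neither gene was called at day 6. Averaged over days, Slc25a5 was lower by knockdown at -0.76 (limma, adjusted p = 0.015) and Slc25a4 higher at 0.26 (adjusted p = 0.00333). Ucp2, an inner membrane carrier, was lower at -0.69 (adjusted p = 0.00114), and Ndufab1, the mitochondrial acyl carrier protein that is also part of complex I but is not matched by the name pattern, at -0.56 (adjusted p = 0.0478).

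Markers of the adipocyte state and the subunits were both higher in scrambled cells at day 6, and their folds over day 0 differed in size in both arms. At day 0 the adipocyte marker sum was already lower in knockdown libraries (48.0 and 67.3 against 82.0 and 97.1 RPM), where the subunit sums of the arms overlapped. From day 0 to day 6 of knockdown cells, the marker mean was 34.7-fold higher and the subunit mean 1.28-fold. In scrambled cells these were 105.9-fold and 2.48-fold, and in both arms the markers started from a far lower sum than the subunits. From day 6 to day 8 both sums fell in scrambled library 1 and in both knockdown libraries. In scrambled library 2 the marker sum rose to 15168 RPM and the subunit sum fell to 14497 RPM. The summed level of the 9 adipocyte markers at day 6 was 5444 and 13534 RPM in scrambled and 1410.2 and 2591 RPM in knockdown libraries, and 8 of 9, all but Lep, were lower by knockdown averaged over days (limma, median -1.39). Of all genes, 13.2% were called lower and 12.3% higher by knockdown averaged over days. For 8 preadipocyte or fibroblast markers the sum at day 6 was 11575 and 17451 RPM against 20049 and 26269.5 RPM, with 4 higher by knockdown averaged over days (Col1a1, Thy1, Cd34 and Ly6a) and Pdgfra lower. Markers of other cell types were mixed. The 6 macrophage markers summed to 56.2 and 126 RPM in scrambled and 15.8 and 21.7 RPM in knockdown libraries at day 6. At day 0 the sums were 10.3 and 10.7 and 6.10 and 8.39 RPM. The sum at day 6, but not each marker, thus went with the subunits. At day 2 the scrambled sum had fallen to 2.60 and 3.37 RPM, while the subunit sum had risen. Lyz2 went the other way at day 6, at 3.82 and 2.56 RPM in scrambled and 6.36 and 5.29 RPM in knockdown libraries. The arms overlapped for Cd68 and Csf1r. Most of the day 6 sum was Siglec1, a sialic acid-binding receptor, at 50.5 and 122 RPM in scrambled and 7.67 and 14.6 RPM in knockdown libraries. It was the 1 of 4 macrophage markers tested that was called, higher in scrambled cells at day 6 (5.22, limma voom, adjusted p = 0.0082) and lower by knockdown at day 6 and averaged over days (-2.60 and -1.42, limma, adjusted p = 0.0315 and 0.00596). Of all genes, 9.12% were called higher in scrambled cells at day 6 and 1.44% lower by knockdown at day 6. The defining macrophage marker Emr1 was at 0 in every library, and Ptprc, of all leukocytes, at 0.123 RPM or less. Of 3 epithelial markers, Epcam was at 0 in every library and Krt18 reached 1.83 RPM in scrambled day 8 library 2, with Cdh1 at 0.0766 RPM or less. The 3 endothelial markers summed to at most 1.07 RPM. Of 4 brown or beige adipocyte markers tested, Dio2 was higher and Ppargc1a lower by knockdown averaged over days (0.62 and -0.61, adjusted p = 0.00157 and 0.00579), and Ucp1 was at 0.0327 RPM or less. The scrambled libraries numbered 2 of days 4, 6 and 8 were the 3 highest of all 20 in subunit sum, at 12891, 17193 and 14497 RPM, and the 3 highest in adipocyte marker sum. The part of the adipocyte and macrophage markers in the subunit differences was not tested. Between days 0 and 2 of scrambled cells, the adipocyte marker sum went from 82.0 and 97.1 to 433 and 683 RPM, a 6.23-fold higher mean, and the subunit sum from 4905 and 5774 to 7470.2 and 8426 RPM, a 1.49-fold higher mean.

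**Figure D5:**
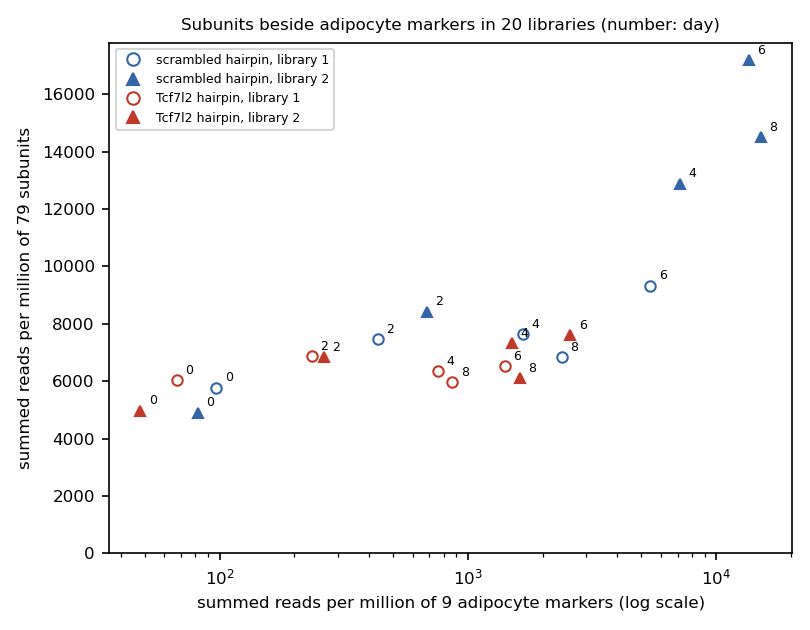
Summed level of the 79 subunits (RPM, linear axis from 0) against the summed level of 9 adipocyte markers (RPM, log axis) in each of the 20 libraries, with the day printed beside each point. The 3 points highest on both axes are the scrambled libraries numbered 2 of days 4, 6 and 8, at 12891, 17193 and 14497 RPM of subunits.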

How the data were processed

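RNA-seq of 20 libraries was used, 2 for each hairpin and day. Per the submitters' processing notes, the tools were TopHat2 2.0.13, SAMtools, Bowtie2 2.2.3.0 and DESeq2 1.10.1, with genome build mm9. No read counter or annotation is given in the sources used here. In the files, the authors deposited log2 values per library after variance stabilisation, transformed separately in each of the 5 day tables, with a mean normalised signal per gene. Each table also holds the authors' own log2 fold change, test score and p-value, which were not used. All per-library columns were used (0 unused).

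Counts were recovered by inverting the transformation of the deposited values. Of the recovered values up to 100 reads, all lay within 0.02 of a whole number. Totals were 20153362 to 33973608 reads per library. RPM values are counts over library sizes scaled by median ratios, and RPKM divides these by the exon length of GENCODE M21 (GRCm38), another build than the authors'. These and the gene and promoter entries were matched by gene ID or symbol.

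Within days, knockdown was tested on the deposited log2 values in limma 3.58.1 under R 4.3.3, with statmod 1.5.0 (trend, robust; 1 mean per group, 10 residual degrees of freedom). The averaged effect used day as a factor (14 degrees of freedom). Changes over days, and the difference of such changes, were tested with limma voom on the recovered counts. Fits covered 16497 genes that reached 10 in the mean normalised count of any table, with Benjamini-Hochberg adjustment and a threshold of 0.05. Differences on the deposited scale understate the change of low genes.

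Same-numbered libraries of both hairpins deviated together (correlations of 0.78, 0.70, 0.55, 0.54 and 0.47 at days 0, 2, 4, 6 and 8). The labels name no shared culture, so this pairing comes from the data, and results of a fit blocked by replicate number are given where it changed a call. Alternatives were other normalizations, filters, tools and left-out libraries. In each comparison up to 2 members per complex and direction with the smallest adjusted p were named, beside a list of core subunits, and up to 3 genes per direction of each further list. Members and lists were chosen with earlier results of these data known.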

Additional observations from a re-analysis of the deposited data

How the results depend on the processing

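Counts are of the 83 genes called. The share of all genes called also changed between the settings below, so a changed count is not by itself a result about these genes. No call of a named gene reversed its direction under any alternative run, but estimates of single subunits did change sign. At day 8 of knockdown, 78 of 79 subunits were lower in the main fit. That number was 64 without the 3 scrambled libraries numbered 2 of days 4, 6 and 8. It was 61 without all 6 libraries numbered 2 of those days. Without the 3 scrambled libraries numbered 2 of days 4, 6 and 8, and without all 6 libraries numbered 2 of those days, the averaged knockdown count went from 42 to 17 and 13, the day 6 knockdown count from 1 to 4 and 3, and the day 8 knockdown count from 2 to 1 and 1. In scrambled cells these settings moved the day 2 count from 6 to 45 and 38, and the day 8 count from 8 to 4 and 3. The second moved the day 6 count from 59 to 30. In knockdown cells the counts at days 2, 4, 6 and 8 went from 2, 0, 0 and 0 to 14, 7, 9 and 2, and to 6, 1, 1 and 1. The median averaged knockdown effect became -0.12 and -0.10 for complex I, -0.19 and -0.23 for complex II, -0.15 and -0.22 for complex III, -0.14 and -0.15 for complex IV, -0.13 and -0.15 for complex V, and -0.14 and -0.14 over all subunits. The median scrambled change at day 6 became 0.64 and 0.64 for complex I, 0.77 and 0.77 for complex II, 1.14 and 1.14 for complex III, 0.63 and 0.63 for complex V, and 0.70 and 0.70 over all subunits.

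In the fit blocked by replicate number, the knockdown count was 27 at day 6 and 15 at day 8. That fit called 8.70% and 8.87% of all genes lower at these days, and 9.29% and 8.20% higher. The scrambled counts were 16, 49 and 52 at days 2, 4 and 8, and the knockdown-arm counts 4, 1 and 1 at days 2, 6 and 8. The block moved no other count by over 1.5 times. Limma voom, and a separate fit per day, gave 0 at days 6 and 8 of knockdown. Without a filter the counts were 0 for knockdown day 6, 5 for scrambled day 4 and 5 for scrambled day 8. A filter at 50 gave 1 for knockdown day 8 and 0 for day 2 of the knockdown arm. Scaling by library total gave 16 for scrambled day 8.

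Leaving out 1 library at a time gave 22 to 53 genes for averaged knockdown, 0 to 30 at day 6 and 0 to 65 at day 8. The scrambled counts were 1 to 13, 0 to 43, 0 to 72 and 0 to 69 at days 2, 4, 6 and 8, and the knockdown arm at day 2 gave 0 to 2. Median scrambled changes at day 6 were 0.64 to 1.28, 0.77 to 1.85, 1.14 to 2.197 and 0.62 to 1.36 for complexes I, II, III and V, and 0.70 to 1.46 over all subunits. A group left with 1 library is assumed to vary like the others. The largest shift of the median of all genes was 0.12, without a filter. The cause of these changes was not tested.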
